A study of Homo sapiens with 24 samples.

Results

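The signal recognition particle (SRP) RNA, also called 7SL RNA, is the RNA scaffold of the particle that brings ribosomes making secreted and membrane proteins to the endoplasmic reticulum. RNA polymerase III (Pol III) transcribes it from the RN7SL genes, whose promoters hold elements inside and upstream of the transcribed sequence. The human genome also carries a large number of sequences related to 7SL RNA, most of them truncated copies left by retrotransposition, and the Alu repeats descend from the same RNA. Annotations built on RNA families list many such copies as SRP RNA although few are known to be transcribed.

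The copies described here are the rows of the deposited small RNA table whose type is SRP RNA only, whose interval is at most 400 bp long and whose name does not start with RN7SL. They numbered 7163 of the 175946 annotated features, and each had a matching ATAC window. The rule used annotation alone and no measured value. A further 1694 rows of the same type were longer. The intervals ran from 159 to 400 bp, 16 of them between 390 and 400 bp, and the shortest row beyond the limit was 404 bp. The cells were HEK293, an established human embryonic kidney line labelled as wild type, in which eGFP (the control, called GFP below), LMNA, LMNB1 or LMNB2 was overexpressed. Below, "with LMNA" means in the libraries of cells overexpressing it. LMNA, LMNB1 and LMNB2 encode the nuclear lamins, the filament proteins under the inner nuclear membrane. Each group had 3 replicate libraries of small RNA and 3 of ATAC, an assay in which a transposase cuts accessible DNA, 24 libraries in all. The promoter that drove the transgenes, the level reached and the time of collection are not given in the sources used here. The labels do not say whether replicates came from separate cultures, so p-values measure the spread between these libraries.

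By library, small RNA totals were 132507051 to 195074742 counts and ATAC totals 156043245 to 290158229. Overlapping features can each hold the same read, so these are sums of counts and not numbers of reads. The GFP small RNA libraries differed most among themselves: the summed CPM (counts scaled to the library total) of 10 microRNAs expected in HEK293 ran from 55.1 to 465 over the 3 GFP libraries, against 87.3 to 177 over the 9 lamin libraries. Of these 10, MIR10A was the highest, with a mean count of 11582 per library. The 10 microRNAs of other cell types with an interval, among them those of blood, neurons and muscle, had mean counts of 2.00 or less. The mitochondrial chromosome held 39.9 to 47.5% of the ATAC counts in GFP, 39.4 to 44.1% with LMNA, 32.8 to 34.1% with LMNB1 and 24.5 to 30.7% with LMNB2. Values without that chromosome are given beside the ATAC results.

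The copies fell into a few lengths. After the 25 bp that the table adds on each side are taken off, 3269 (45.6%) were 112 to 124 bp long, most of them 117 bp, and 3425 (47.8%) were 140 to 160 bp long, most of them 148 bp. A further 397 (5.54%) were 201 to 350 bp, nearer the size of the full RNA, and 72 had other lengths. Their strands were balanced, with 3639 on the plus and 3524 on the minus strand, and they lay on all 24 chromosomes. Of all copies, 3884 (54.2%) lay inside a protein-coding gene of RefSeq and 2417 (33.7%) overlapped a long non-coding RNA (lncRNA) interval of the table. Only 55 matched a named 7SL pseudogene of RefSeq, 28 of these among the 397 long copies. A match was by overlap of position with the RefSeq entry, without regard to strand or to the length of that entry. The 7163 rows carried 4925 distinct sequence identifiers, and 2381 copies shared theirs with another. One identifier, URS0000924419, named 333 copies, 297 of them 117 bp long.

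Some of the copies with the most ATAC counts lay beside gene promoters, and the upstream sequence of 3 such genes is shown for the way it abuts the copy. The bases come from RefSeq (GRCh38.p14), run 5′ to 3′ on the gene's strand, and end just before the transcription start. Capitals mark the bases that fall inside the ATAC window of the copy. The CAMLG promoter (chr5:134738298-134738547, plus strand) follows a 148 bp copy at chr5:134737991-134738188, the USP39 promoter (chr2:85615936-85616185, plus strand) follows a 117 bp copy at chr2:85615787-85615953, and the SEC13 promoter (chr3:10321113-10321362, minus strand) faces a copy at chr3:10321379-10321548.
CAMLG: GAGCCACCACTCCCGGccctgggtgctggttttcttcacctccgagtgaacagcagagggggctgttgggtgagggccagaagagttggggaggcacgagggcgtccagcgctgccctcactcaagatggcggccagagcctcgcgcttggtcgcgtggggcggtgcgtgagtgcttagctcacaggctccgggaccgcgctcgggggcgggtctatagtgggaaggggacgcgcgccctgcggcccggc
USP39: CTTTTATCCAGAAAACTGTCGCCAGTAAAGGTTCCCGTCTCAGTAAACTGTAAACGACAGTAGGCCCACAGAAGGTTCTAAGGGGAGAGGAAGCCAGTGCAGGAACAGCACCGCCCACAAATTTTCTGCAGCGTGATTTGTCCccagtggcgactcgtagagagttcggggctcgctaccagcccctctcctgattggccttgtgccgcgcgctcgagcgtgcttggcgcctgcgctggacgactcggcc
SEC13: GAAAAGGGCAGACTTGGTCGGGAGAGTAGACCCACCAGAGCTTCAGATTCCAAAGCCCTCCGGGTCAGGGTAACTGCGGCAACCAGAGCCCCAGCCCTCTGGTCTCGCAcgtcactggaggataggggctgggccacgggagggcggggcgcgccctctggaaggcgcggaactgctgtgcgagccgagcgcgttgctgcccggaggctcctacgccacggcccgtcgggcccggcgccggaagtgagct
The letters GGGCGG, searched on both strands, occurred 2 times in the CAMLG stretch and 1 time each in those of USP39 and SEC13. Of 35116 RefSeq promoters of the same 250 bases, 42.6% hold it. CCAAT on either strand, which can overlap the first motif at its ends, occurred 1 time in USP39 and 0 times in CAMLG and SEC13, and 32.0% of promoters hold it. CAMLG encodes a receptor for tail-anchored membrane proteins, USP39 a splicing factor, and SEC13 a coat protein of secretory vesicles and the nuclear pore. SEC13 was chosen for its sequence after its values were seen. EIF5A, beside a copy with a higher mean ATAC count (258 against 252), was left out. Its stretch held GGGCGG 0 times and CCAAT 1 time, so the 3 shown do not measure how common either motif is.

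Most copies had next to no small RNA. Over the 12 libraries together 4009 copies (56.0%) had at least 1 count, but 3545 of these had only 1 to 3, and 3154 had none. A count of 0 allows up to 3 counts of 1872600000 in all, or 0.0016 CPM. Only 41 copies had more than 12 counts, an average above 1 per library. A count in every library was found for 9 copies, 10 or more counts in every library for 2, and a mean of at least 10 for 3. All copies together held 9664 counts, of which the 3 highest copies had 971 (10.0%). Long copies were covered more often, 277 of 397 (69.8%) having a count, against 1761 of 3269 (53.9%) of the 117 bp kind and 1936 of 3425 (56.5%) of the 148 bp kind, and they held 17.6% of the counts. They also span more bases, and neither difference was tested.

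**Figure D1:**
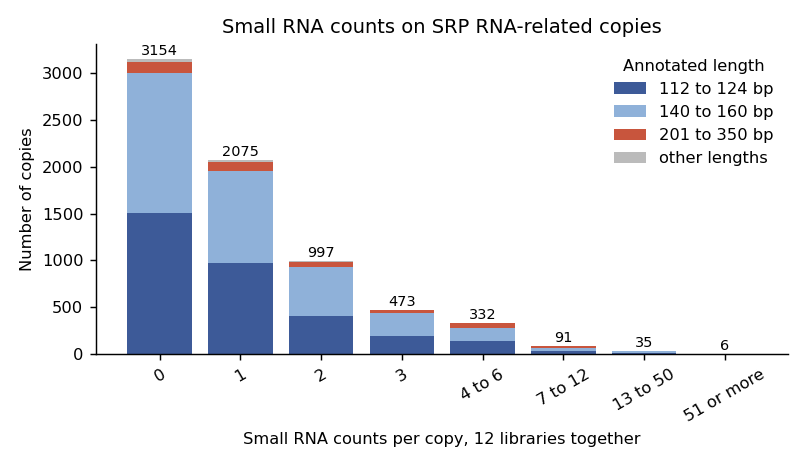
Bars give the number of copies (y axis) by the small RNA counts each had in the 12 libraries together (x axis), coloured by annotated length. The bar at 0 holds 3154 copies and that at 1 holds 2075, while 6 copies had more than 50 counts.

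Library by library, the copies with a count numbered 457, 583 and 590 in GFP, 587, 522 and 581 with LMNA, 676, 662 and 674 with LMNB1, and 803, 718 and 582 with LMNB2. All LMNB1 libraries lay above all GFP libraries by this measure, while LMNB2 overlapped GFP. On the scale of CPM with TMM-scaled library sizes, which corrects for depth and composition, the copies summed to 4.87, 5.52 and 4.73 in GFP and 4.66, 4.54 and 4.42 with LMNA. The sums were 5.07, 5.21 and 5.15 with LMNB1 and 6.57, 5.78 and 5.51 with LMNB2. The LMNA libraries were all below the GFP libraries, LMNB1 lay within the GFP range, and the lowest LMNB2 library (5.506) fell just under the highest GFP library (5.519). Group means were 5.04 ± 0.420, 4.54 ± 0.123, 5.14 ± 0.0732 and 5.95 ± 0.551 (SD, n = 3) for GFP, LMNA, LMNB1 and LMNB2. Without the 3 highest copies the GFP libraries ran from 3.75 to 5.07 and the LMNA libraries from 3.99 to 4.36, so these groups then overlapped. By the raw totals the GFP sums were 3.07, 4.99 and 6.19 CPM, which enclose those of LMNA (3.87 to 4.71) and LMNB1 (5.31 to 5.54) and overlap those of LMNB2 (5.85 to 7.63). A sum over copies was not tested, and in bulk libraries fewer cells with an RNA and less of it per cell cannot be told apart.

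**Figure D2:**
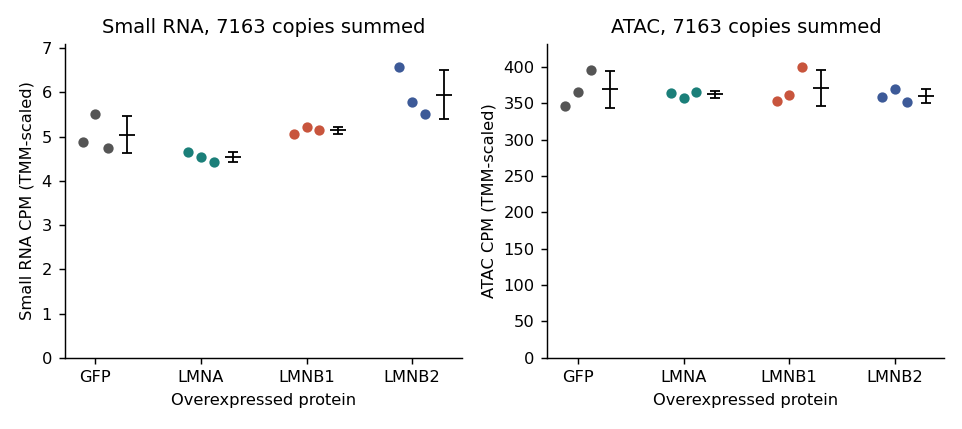
Points are libraries, and the bars beside them the mean and SD of 3, for the summed TMM-scaled CPM of all 7163 copies in small RNA (left) and ATAC (right), by overexpressed protein (x axis). In small RNA the LMNB2 libraries sit from 5.51 to 6.57 and the GFP libraries from 4.73 to 5.52, and in ATAC the groups overlap, with means from 360 to 371.

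The 3 RN7SL genes set the scale. Per kilobase, RN7SL1, RN7SL2 and RN7SL3 had 26.8 to 48.3 TMM-scaled CPM over the libraries and the copies 0.00322 to 0.00479, a ratio with a median of 9701 over the libraries. Of all counts on the copies and the 3 genes, the copies held 13.4% ± 2.32 in GFP, 9.48% ± 1.17 with LMNA, 12.3% ± 0.684 with LMNB1 and 10.6% ± 0.883 with LMNB2 (SD, n = 3). The LMNA libraries (8.20 to 10.5%) and the LMNB2 libraries (9.95 to 11.6%) were below all GFP libraries (11.7 to 16.0%), and LMNB1 overlapped GFP. Without the 1 copy with the most counts the shares were 7.97 to 10.2% with LMNA, 9.35 to 11.1% with LMNB2 and 10.02 to 15.5% in GFP, so that both groups overlapped GFP. The share also moves with the 3 genes, whose summed TMM-scaled CPM was 33.0 ± 3.62 in GFP, 43.9 ± 7.46 with LMNA, 36.7 ± 2.74 with LMNB1 and 50.2 ± 0.527 with LMNB2 (SD, n = 3). A lower share is therefore no measure of fewer counts on the copies, whose summed CPM was highest with LMNB2. The handling of reads with several matches is not given in the sources used here, and whether reads of 7SL RNA were counted at copies was not tested.

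Copies with the same sequence identifier did not share one value. Of the 333 copies of URS0000924419, 72 had no count, and the highest had 147 counts while the next had 53, 49 and 34. Of the 4009 copies with a count, 3467 had the same 12 counts as some other copy, but none of the 41 with more than 12 counts did. Since 3545 of the 4009 had only 1 to 3 counts, few patterns were possible for most, and shared reads were not tested.

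Among the 3 copies with the most small RNA counts was a 280 bp copy on the plus strand at chr7:104911889-104912218. This copy is called RN7SL8P here after the 7SL pseudogene that it matched. It had 14, 20 and 37 counts in GFP, 21, 29 and 29 with LMNA, 17, 17 and 27 with LMNB1, and 36, 27 and 23 with LMNB2. The 4 groups overlapped, with 0.159 ± 0.0452, 0.167 ± 0.0349, 0.121 ± 0.0308 and 0.184 ± 0.0287 TMM-scaled CPM (SD, n = 3). Its largest difference from GFP was with LMNB1, at −0.38 ± 0.25 on the log2 scale. The lncRNA LHFPL3-AS2 runs over it on the other strand. The 297 counts of the copy equal 75% of the 396 counts of the 32133 bp interval of that gene. Whether the same reads were counted at both is not known, as the handling of strand is not given in the sources used here. A 331 bp lncRNA interval on the strand of the copy, lnc-LHFPL3-2, covers nearly the same bases and had the same 297 counts, so these annotations cannot be told apart here.

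Another of the 3 was a 117 bp copy on the plus strand at chr2:10690108-10690274, one of the copies of URS0000924419. This copy is called RN7SL832P here after the pseudogene that it matched. It had 19, 13 and 6 counts in GFP, 5, 10 and 14 with LMNA, 8, 12 and 7 with LMNB1, and 27, 14 and 12 with LMNB2. These groups overlapped as well, at 0.0975 ± 0.0647, 0.0607 ± 0.0264, 0.0541 ± 0.0172 and 0.113 ± 0.0436 TMM-scaled CPM (SD, n = 3). The lncRNA lnc-ATP6V1C2-5, on the same strand, runs over it and had 178 counts, 82.6% of them on the copy.

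**Figure D3:**
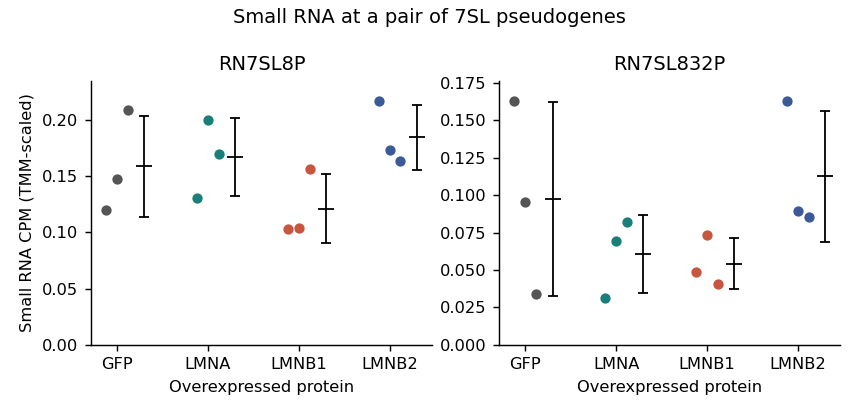
Points are libraries, with the mean and SD of 3 beside them, of TMM-scaled small RNA CPM (y axes of different height) for RN7SL8P and RN7SL832P, by overexpressed protein. In both panels the GFP libraries overlap those of each lamin, and the means of RN7SL8P run from 0.121 to 0.184.

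The 3 copies with the most counts were the only ones to pass the filter on low counts, 0.0419% of the copies against 19.3% of all features. No copy was called in any of the 4 small RNA tests (quasi-likelihood test of edgeR, Benjamini-Hochberg adjusted over 33893 features, at 0.05). Of all features tested, 0% were called for LMNA, 0.0384% for LMNB1, 2.66% for LMNB2 and 1.68% for any difference among the 4 groups. None of the 3 had an unadjusted p under 0.05 in edgeR either, where 5.46%, 5.51%, 19.9% and 15.9% of all features did, and DESeq2 called none. In none of the 3 did a lamin group lie wholly above or below GFP, as 9.5%, 10.1% and 22.3% of all features did for LMNA, LMNB1 and LMNB2. Fold changes were below 0 at 2 of the 3 for LMNA, at all 3 for LMNB1 and at 1 for LMNB2, where 56.9%, 55.9% and 53.2% of all features were lower and 43.1%, 44.1% and 46.8% higher. The adjusted p for any difference was 0.51 for RN7SL8P and 0.45 for RN7SL832P (edgeR's quasi-likelihood test). One GFP library decided a count: without GFP replicate 3, 1 copy was called by edgeR for LMNB2 and in the joint test, and it was neither RN7SL8P nor RN7SL832P.

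Of the 7 other copies among the 10 highest by mean small RNA CPM, none was tested, and their means lay between 2.75 and 6.42 counts per library. The 117 bp copy at chr17:39457617-39457783, 3786 bp from the start of CDK12, which encodes a kinase of transcription elongation, had 2, 2 and 1 counts in GFP, 0, 1 and 2 with LMNA, 1, 2 and 2 with LMNB1, and 5, 7 and 9 with LMNB2. Each LMNB2 library was above the other 9. The copy at chrX:23941938-23942104 had 5, 2 and 6 counts in GFP and 8, 4 and 6 with LMNA. It had 10, 10 and 16 with LMNB1 but 9, 0 and 1 with LMNB2, so that LMNB1 was above all other groups. The 150 bp copy at chr17:16212094-16212293, inside NCOR1, a corepressor of nuclear receptors, had 2 to 4 counts in GFP, 3 to 12 with LMNA, 3 to 8 with LMNB1 and 2 to 3 with LMNB2. The other 4 had at most 11 counts in any library, and their groups overlapped GFP. Values this low come from a list chosen for its height, so these patterns are descriptions only.

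Copies inside lncRNA intervals were compared with the rest of those intervals. For 2310 copies that lay inside an lncRNA interval at least 10 times as long, 3965 counts were found where the density of the rest of the interval would give 19209, a ratio of 0.206. The ratio was 0.154 to 0.257 over the libraries, and 0.156 without the 3 highest copies. By group it was 0.222 ± 0.0126 in GFP, 0.167 ± 0.0133 with LMNA, 0.203 ± 0.00821 with LMNB1 and 0.234 ± 0.0225 with LMNB2 (SD, n = 3). For each copy the shortest such interval was used, on either strand. The rest of an interval includes any other small RNA gene inside it.

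Accessibility was measured at nearly every copy but was low. All but 1 of the 7163 windows had an ATAC count, 4874 had one in all 12 libraries, and 475 had 10 or more in all 12. The median copy had a mean of 8.58 counts per library, 54 copies had a mean of at least 100, and the highest had 714. In TMM-scaled CPM the copies summed to 369 ± 25.3 in GFP, 362 ± 4.30 with LMNA, 371 ± 24.9 with LMNB1 and 360 ± 9.38 with LMNB2 (SD, n = 3). Libraries ran from 346 to 396 in GFP and from 351 to 400 in the lamin groups, so all 3 lamin groups overlapped GFP. This depended on the scaling. By raw library totals the LMNB1 libraries (371 to 435 CPM) were all above the GFP libraries (321 to 362), while LMNA (332 to 376) and LMNB2 (358 to 368) overlapped them. By totals without the mitochondrial chromosome the LMNB2 libraries (474 to 527) were all below the GFP libraries (585 to 682), and LMNA (595 to 621) and LMNB1 (562 to 661) overlapped them. Per kilobase the 3 RN7SL genes had 62.4 to 89.7 times the ATAC CPM of the copies.

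Most copies were no more accessible than the DNA around them. With all libraries pooled, the density of counts in the window of a copy, relative to flanks of 5000 bp that start 350 bp outside it, had a median of 0.929, and 3942 copies (55.0%) were under 1. A ratio of at least 2 was reached by 551 copies (7.69%), of at least 5 by 41 (0.572%), and of at least 10 by 14. Among all 25067 windows no longer than those of the copies, the 7163 copies included, the median was 0.944, but 4.82% reached 5. Of the 777 tRNA windows 39.5% did. By library the median ratio of the copies was 0.794 ± 0.0704 in GFP, 0.788 ± 0.0519 with LMNA, 0.815 ± 0.0583 with LMNB1 and 0.804 ± 0.0462 with LMNB2 (SD, n = 3), differences smaller than the spread within groups. The RN7SL genes stood at 18.1 ± 0.979, 17.1 ± 0.731, 19.6 ± 0.129 and 20.9 ± 2.88 by the same measure.

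**Figure D4:**
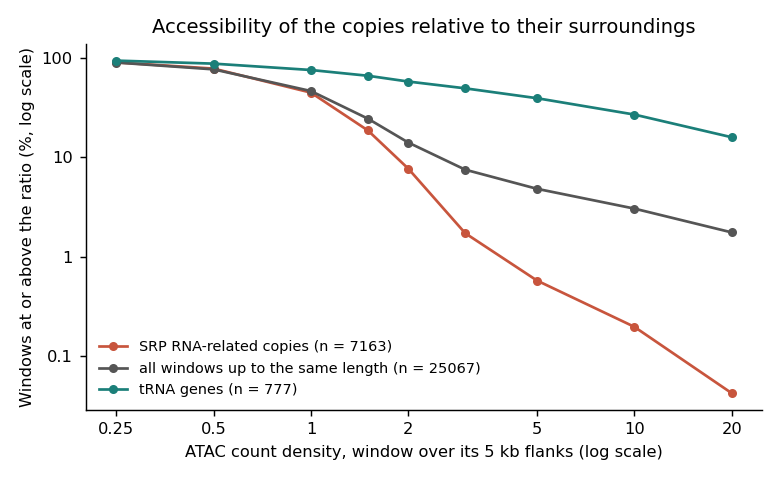
Lines give the percentage of windows (y axis, log scale) whose pooled ATAC density is at or above a multiple of that in their 5 kb flanks (x axis, log scale), for the copies, all windows up to the same length and tRNA genes. The set of all windows includes the copies. The curves of the copies and of all windows lie together up to a ratio of 1, and at 5 they stand at 0.572% and 4.82%.

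The copies near the start of a gene had more counts per kilobase. In GFP, copies within 500 bp of a start listed in RefSeq (25 copies) had 0.990 ± 0.0938 TMM-scaled ATAC CPM per kilobase, those from 500 bp to 5 kb (862) had 0.174 ± 0.00885, those from 5 to 50 kb (3980) had 0.116 ± 0.00774 and those beyond 50 kb (1921) had 0.0894 ± 0.00988 (SD, n = 3). The order was the same in each of the 12 libraries. With LMNA, LMNB1 and LMNB2 the 25 nearest copies had 1.05 ± 0.0664, 1.10 ± 0.0572 and 1.02 ± 0.0338, and each of these groups overlapped GFP. Relative to the 5 kb flanks, with all libraries pooled, the order differed. The median ratio was 1.29 within 500 bp and 0.319 from 500 bp to 5 kb. It was 0.936 from 5 to 50 kb and 1.09 beyond 50 kb. A ratio of at least 5 was reached by 5 of the 25 nearest copies and by 2 of the 862. Of the 41 copies with a ratio of at least 5, 35 had a distance to a listed start, under 1000 bp for 6 of them, against 107 of 6788 copies (1.58%) in all.

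The window with the most ATAC counts belonged to a 148 bp copy at chr1:146038379-146038576. It had 499, 597 and 556 counts in GFP, 652, 581 and 804 with LMNA, 844, 981 and 877 with LMNB1, and 720, 770 and 681 with LMNB2. After scaling, LMNB2 was the lowest group, at 2.66 ± 0.0819 CPM against 3.17 ± 0.316 in GFP (SD, n = 3). Its log2 fold change of −0.25 ± 0.09 (SE) had an adjusted p of 0.86 by edgeR's quasi-likelihood test. The copy was 4.57 times as accessible as its flanks and had 7 small RNA counts in all.

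Among the next copies were 5 near a listed start. One inside CFAP97 at chr4:185202378-185202574, 1524 bp from the start of that cilia-related gene, had a mean of 522 counts and a ratio to its flanks of 14.1. The copy 506 bp from the start of MAPK14, the p38 alpha kinase, at chr6:36027219-36027385 had a mean of 493 and a ratio of 7.58. The CAMLG copy shown above had a mean of 482 and a ratio of 14.2, and the USP39 copy a mean of 364 and a ratio of 6.25. The window of the USP39 copy takes in 143 of the 250 bases printed for that promoter. A copy at chr6:31542675-31542872 near DDX39B-AS1 had a mean of 336 but a ratio of only 1.33, its flanks being nearly as high. In all 5 copies the small RNA counts were 7 or fewer over the 12 libraries.

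Other accessible copies were far from any listed start. The copy with the highest ratio, 31.1, was a 118 bp copy at chr16:69386187-69386354, 34485 bp from the start of TMED6. It had 242, 314 and 253 ATAC counts in GFP, 349, 281 and 486 with LMNA, 485, 564 and 411 with LMNB1, and 489, 417 and 424 with LMNB2, and no small RNA count. Scaled, these were 1.56 ± 0.269, 1.68 ± 0.0765, 1.80 ± 0.162 and 1.63 ± 0.154 CPM (SD, n = 3), within the spread of the libraries. The 148 bp copy at chr11:67081299-67081496, 24551 bp from RHOD, had a ratio of 21.2 and 2 small RNA counts.

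High accessibility and small RNA counts met in few copies. Of the 41 copies with a ratio of at least 5, 29 (70.7%) had any small RNA count and 2 (4.88%) had more than 12. Of the other 7122 copies, 3980 (55.9%) had a count and 39 (0.548%) had more than 12. These differences were not tested. The median was 1 count in both sets. The 2 copies were RN7SL832P, with 147 small RNA counts, a mean of 360 ATAC counts and a ratio of 30.05, and a 284 bp copy at chr7:152025169-152025502, with 33 small RNA counts, a mean of 466 and a ratio of 17.5. RN7SL832P had 267, 267 and 291 ATAC counts in GFP, 372, 303 and 417 with LMNA, 402, 448 and 329 with LMNB1, and 438, 420 and 369 with LMNB2. Scaled to CPM its groups overlapped, at 1.58 ± 0.0930, 1.68 ± 0.20, 1.46 ± 0.145 and 1.502 ± 0.0525 (SD, n = 3). RN7SL8P, which had more small RNA, had a ratio of 1.79 and a mean of 14.8 ATAC counts.

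The groups were then compared at each copy in ATAC. Of the 7163 windows, 4744 (66.2%) passed the filter, against 93.1% of all features, and 0 were called for any lamin or for any difference among the 4 groups (quasi-likelihood test of edgeR, adjusted over 163786 windows). Of all windows 0.000611%, 0.00305%, 0.00244% and 0.0421% were called in the LMNA, LMNB1, LMNB2 and joint tests. Unadjusted p-values under 0.05 were found for 217 copies (4.57%), 209 (4.41%), 217 (4.57%) and 142 (2.99%), against 5.19%, 4.78%, 5.72% and 5.81% of all windows. DESeq2 also called none, and neither did edgeR without the mitochondrial chromosome, when 5100 copies were tested and the medians were −0.04, −0.01 and −0.05 (log2). The 3 lamin libraries lay wholly on one side of GFP at 499, 512 and 497 copies with LMNA, LMNB1 and LMNB2. These are 10.5%, 10.8% and 10.5% of the tested copies, against 9.55%, 8.46% and 10.3% of all windows. The gap was widest for LMNB1, and these differences were not tested.

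Fold changes centred near 0. The tested copies had median log2 fold changes of −0.03 (LMNA), 0.00 (LMNB1) and −0.04 (LMNB2), and those of all tested windows 0.00 in each. Higher and lower copies numbered 2261 and 2483 with LMNA, 2382 and 2362 with LMNB1, and 2216 and 2528 with LMNB2. These higher and lower shares were near those of all windows, of which 49.6%, 49.5% and 49.1% were higher and 50.4%, 50.5% and 50.9% lower. Without TMM factors the split was 2572 and 2172, 3020 and 1724, and 2593 and 2151, and the median of all windows was 0.09, 0.19 and 0.11. Precision set what could be seen: the median SE was 0.52, 0.50 and 0.50 for the 4212 copies with a mean under 20 counts, and 0.16 for the 54 with at least 100. Among those 54 the log2 fold changes ran from −0.39 to 0.39 with LMNA, from −0.30 to 0.41 with LMNB1 and from −0.35 to 0.51 with LMNB2. A change of the size of these SEs was not detectable at most copies.

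**Figure D5:**
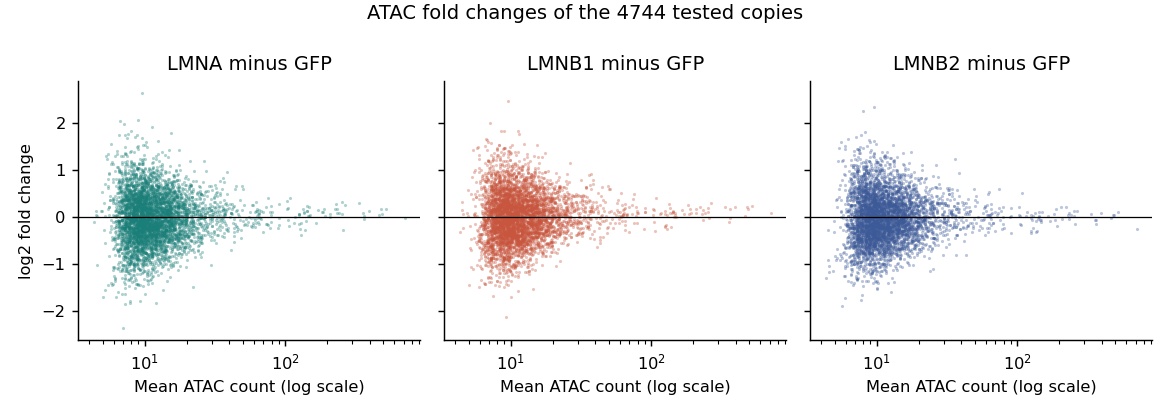
Each point is 1 of the 4744 tested copies, placed by its mean ATAC count over the 12 libraries (x axis, log scale) and its log2 fold change against GFP (y axis), in a panel per lamin. The points narrow towards 0 as counts grow, and the highest point in each panel is the chr10 copy, at 2.63, 2.46 and 2.34.

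The lowest p-values among the higher copies were all at a single site. The 117 bp copy at chr10:110541921-110542087, 25304 bp from the nearest listed start, had 0, 0 and 1 ATAC counts in GFP, 7, 10 and 21 with LMNA, 8, 10 and 21 with LMNB1, and 13, 10 and 13 with LMNB2. Every lamin library was above every GFP library. However, the copy passed the filter on low counts only through its lamin libraries and was named for its low p-values. Its values are therefore a description and no support for a difference. The log2 fold changes were 2.63 ± 0.57, 2.46 ± 0.57 and 2.34 ± 0.56 (SE), with adjusted p-values of 0.257, 0.978 and 0.715, and 0.234 in the joint test (edgeR's quasi-likelihood test). These 3 comparisons share their GFP libraries. Scaled by library totals alone, the copy passed with LMNA (adjusted p of 0.029) and with LMNB1 (0.0468). It had no small RNA count, and its window was below its flanks, with a ratio of 0.428.

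Among the lower copies a different one led for each lamin. For LMNA it was a 148 bp copy inside PRRC2B at chr9:131469163-131469360, with 18, 35 and 17 counts in GFP and 7, 9 and 12 with LMNA, a log2 fold change of −1.49 ± 0.40 (edgeR adjusted p of 0.562). For LMNB1 it was a 159 bp copy inside DNM3, a dynamin gene, at chr1:172081077-172081285, with 8, 14 and 16 counts in GFP and 0, 2 and 6 with LMNB1, a change of −2.12 ± 0.53 (0.978). For LMNB2 it was a 117 bp copy at chr2:219840250-219840416, with 7, 5 and 10 counts in GFP and 1, 1 and 2 with LMNB2, a change of −1.90 ± 0.52 (edgeR adjusted p of 0.763). Each pair of groups was apart, which a choice by lowest p favours and which is thus no support for a difference. None passed the threshold.

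A pair of copies lay at the genes that were overexpressed. One, 117 bp long on the plus strand at chr1:156083497-156083663, lies 924 bp into LMNA. It had 43, 47 and 52 ATAC counts in GFP, 58, 45 and 91 with LMNA, 81, 115 and 62 with LMNB1, and 85, 94 and 61 with LMNB2. Its log2 fold change with LMNA was 0.09 ± 0.22, with an adjusted p of 0.999 by edgeR, and it had 6 small RNA counts, 3 of them in LMNA libraries. The other, a 117 bp copy at chr5:126773090-126773256, ends 3367 bp before LMNB1. Its own window had 12, 2 and 14 counts in GFP and 7, 20 and 17 with LMNB1. Its 5 kb flanks, which reach into LMNB1, had 3822, 3223 and 4099 counts in GFP but 2518901, 3587756 and 2212829 in the LMNB1 libraries. These flanks held 43.6% of the flank counts of all 7163 copies in the LMNB1 group. With counts summed over the copies, the ratio of windows to flanks was 0.637 ± 0.0605 in GFP, 0.617 ± 0.0125 with LMNA, 0.360 ± 0.0507 with LMNB1 and 0.626 ± 0.0256 with LMNB2 (SD, n = 3). Without this 1 copy the LMNB1 value was 0.632 ± 0.0562, inside the range of the other groups.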

How the data were processed

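Small RNA and ATAC libraries came from HEK293 cells, per the labels. The authors deposited raw counts per feature, with GRCh38 named in the submitters' processing notes. Aligner, counter, strand and treatment of multiply mapped reads are not given in the sources used here, so counts at near-identical or overlapping features are uncertain. Annotated lengths assume 25 bp of padding on each side, as 657 of 2139 microRNA hairpins showed at their RefSeq start. ATAC windows reach 125 bp further. Positions count from 1.

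All 12 libraries of an assay were fitted in edgeR 4.0.16 (R 4.3.3) after filterByExpr and TMM, with robust quasi-likelihood dispersions and a prior count of 2. Calls needed a Benjamini-Hochberg adjusted p under 0.05 over all tested features. The fit was tested on simulated data, and DESeq2 1.42.0 was an alternative. Named copies were those called, the 10 highest by mean CPM per assay, the lowest p in each direction per lamin, and any at a lamin gene. One of the 3 copies tested in small RNA is not reported here. Copies, lists and rules were chosen with earlier results of these data known.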

Additional observations from a re-analysis of the deposited data

How the results depend on the processing

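Low counts limit these results: only 3 copies could be tested in small RNA, and in ATAC a typical tested copy had a standard error near 0.5 on the log2 scale. Leaving out 1 library at a time gave 0 to 1 called copies in small RNA for LMNB2 and for the joint test, both 1 without GFP replicate 3, and 0 in every other test of both assays. With total counts only, 1 copy was called in ATAC for LMNA and 1 for LMNB1. This scaling moved the median of all ATAC windows to 0.09, 0.19 and 0.11 in LMNA, LMNB1 and LMNB2 and that of the copies to 0.055, 0.17 and 0.059, and the medians of all small RNA features in LMNB1 and LMNB2 to 0.11 and 0.19. Of the 18 same-number correlations 2 were above 0.1 in each assay, the highest being 0.234 in small RNA and 0.195 in ATAC. Between libraries with different numbers the highest was 0.0708 in small RNA and 0.0895 in ATAC. Whether the replicate numbers pair the libraries was not tested. With the replicate number as a block, 0 copies were called in every test.

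The small RNA median of the tested copies, which were 3 or 4 depending on the library left out, lay between −0.73 and 0.25 (LMNA), −0.55 and 0.35 (LMNB1), and −0.13 and 0.20 (LMNB2) over the fits without a library. With no count filter 4009 copies were fitted, and their median was 0.00 for each lamin. For ATAC the corresponding limits were −0.072 and 0.046 (LMNA), −0.09 and 0.08 (LMNB1), −0.08 and 0.03 (LMNB2). Copies with small RNA counts numbered 9 with a count in all 12 libraries, 2 with at least 10 in all 12, and 789 when copies with the same counts were merged, and 475 copies had at least 10 ATAC counts in all 12. Relative to flanks of 50000 bp the ratio was 0.566, 0.551, 0.568 and 0.564 in GFP, LMNA, LMNB1 and LMNB2. With flanks of 500 bp it was 0.847, 0.868, 0.886 and 0.875 in the same order. Over all feature windows of any length the medians were 0.916, 0.911, 0.913 and 0.921 with 50000 bp. With 500 bp those of all windows were 0.932, 0.946, 0.948 and 0.944. Summed counts, chosen after the data were seen, gave 0.637, 0.617, 0.360 and 0.626, and 0.638, 0.618, 0.632 and 0.628 without the copy beside LMNB1. Restricting small RNA to copies outside lncRNA intervals left none to test. Without a library the ratio to 5000 bp flanks stayed between 0.758 and 0.844.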

Other observations

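The 1694 rows of the same type that were too long to count as copies were mostly of another size. Their median length was 59448 bp and the longest was 620789 bp, and 1211 of the short copies lay inside at least 1 of them. A mean small RNA count of 10 or more was found for 927 of them (54.7%), against 3 of the 7163 short copies. These rows span far more bases, so the counts do not show denser coverage.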
